A study of Mus musculus with 6 samples.

Results

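Topoisomerases cut and rejoin DNA, and the anthracycline doxorubicin acts on those of type II. The 10 genes described here encode mouse topoisomerases and the proteins that work beside them or clear them from DNA. They are Top2a, Top2b, Top1, Top1mt, Top3a, Top3b, Topbp1, Tdp1, Tdp2 and Sprtn, taken by gene symbol from a table of 35932 genes, and all 10 were among the 13414 genes with enough counts to be tested. The study sequenced total RNA from bone marrow leukemic blasts positive for MLL-AF9, a fusion oncogene of acute myeloid leukemia that both groups carry. The 3 resistant libraries carry the treatment label of cytarabine, a nucleoside analog, with doxorubicin, and the 3 sensitive libraries that of vehicle, so resistance and drug exposure cannot be told apart. Dose, time of harvest, strain, age and whether the replicates came from separate animals are not stated in the labels, so p-values reflect how far these libraries scatter, and that scatter may be technical only.

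Topoisomerases relieve the twisting of DNA that replication and transcription create, by cutting a strand or both strands and holding the cut end on a tyrosine of the enzyme. The type II enzymes, TOP2A and TOP2B, cut both strands. TOP2A is made mainly by dividing cells and separates sister chromatids before mitosis, whereas TOP2B is also made by cells that do not divide. Anthracyclines hold the type II enzymes in their cut state, so that the protein remains bound to the broken DNA as an adduct. TDP2 releases TOP2 from 5′ ends, TDP1 releases TOP1 from 3′ ends, and SPRTN is a protease that digests proteins bound to DNA.

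Top2a and Top3b were the members that passed the test, and both were lower in resistant blasts: Top2a by 21% in the fitted fold change and Top3b by 15.9%. Of the 10 members, 0 were higher, 2 were lower and 8 did not pass (edgeR quasi-likelihood test, Benjamini-Hochberg adjusted p under 0.05 over all genes tested). At an unadjusted p under 0.05, edgeR gave 0 higher and 3 lower members. DESeq2 and limma-voom each called 0 higher and 3 lower at an adjusted p under 0.05. Among all genes tested, 39.2% passed, 18.5% as higher and 20.8% as lower, so the members' share of lower genes was near the background. The median size of the log2 fold change was 0.11 over the members and 0.22 over all genes tested. The resistant and sensitive values did not overlap in 3 members (Top2a, Top3b and Top1), against 52.4% of all genes tested.

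The promoter of Top2a is shown because Top2a had the largest change of the members in these libraries, that of Top3b because it was the other member that passed, and that of Top2b because it is the paralog of Top2a that did not pass. They run from 250 bases before to 50 after the gene's start in RefSeq on GRCm38.p6, and 7 of the 10 members had a promoter in that table. Capitals mark CCAAT, the letters of the box bound by NF-Y, and TTTGAA, the cell cycle element known as CHR, each on either strand. The Top2a stretch is chr11:99024140-99024439 on the minus strand, the Top2b stretch is chr14:16364956-16365255 on the plus strand and the Top3b stretch is chr16:16870486-16870785 on the plus strand.
Top2a: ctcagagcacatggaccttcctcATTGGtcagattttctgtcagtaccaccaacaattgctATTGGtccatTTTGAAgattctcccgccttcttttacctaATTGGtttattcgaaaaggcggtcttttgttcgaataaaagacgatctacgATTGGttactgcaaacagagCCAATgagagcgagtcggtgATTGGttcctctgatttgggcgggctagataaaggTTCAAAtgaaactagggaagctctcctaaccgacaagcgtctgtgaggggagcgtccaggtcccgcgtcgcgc
Top2b: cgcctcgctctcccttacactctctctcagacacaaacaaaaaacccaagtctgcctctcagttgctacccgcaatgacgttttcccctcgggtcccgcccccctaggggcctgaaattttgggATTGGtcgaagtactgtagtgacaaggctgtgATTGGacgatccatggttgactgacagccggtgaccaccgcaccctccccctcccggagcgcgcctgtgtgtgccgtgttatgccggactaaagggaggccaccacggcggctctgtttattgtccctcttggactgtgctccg
Top3b: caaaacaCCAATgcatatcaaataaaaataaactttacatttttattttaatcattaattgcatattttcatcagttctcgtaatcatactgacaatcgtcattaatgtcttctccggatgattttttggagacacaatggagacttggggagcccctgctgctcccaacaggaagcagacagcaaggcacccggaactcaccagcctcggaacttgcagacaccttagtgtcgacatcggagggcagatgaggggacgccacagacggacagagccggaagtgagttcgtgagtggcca

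The Top2a promoter held 6 matches of CCAAT and 2 of TTTGAA, the Top2b promoter 2 and 0, and the Top3b promoter 1 and 0. Of the 32851 mouse promoters of the same length, 37.4% held at least 1 CCAAT, 17.9% at least 1 TTTGAA and 6.95% both, and 26 promoters (0.079%) held 6 or more CCAAT. The promoters of Top1, Topbp1 and Sprtn held neither motif, and that of Tdp1 held 1 TTTGAA and no CCAAT. The GC box GGGCGG, bound by Sp factors, was found in 35.7% of all promoters and in those of Top1 (3 matches), Topbp1 (2), Sprtn (2), Tdp1 (1), Top2a (1) and Top2b (1), but not in that of Top3b. The E2F letters TTTCGCGC were present in 0.323% of all promoters and, among the members, in that of Topbp1 (1 match). Both strands were searched, 0 matches of different motifs overlapped in the members' promoters, and the matches describe the sequence alone.

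Each library held 22206341 to 31856009 counts in total. The blasts' labelled identity was checked on 11 genes of myeloid progenitors, all of which passed the filter on low counts. Among them Mpo, the myeloperoxidase gene of early granulocyte precursors, averaged 1500 ± 257 CPM in resistant and 1890 ± 256 CPM in sensitive libraries (SD, n = 3 each). In edgeR's test 5 of the 11, Mpo among them, did not pass. Of the rest, 3 were higher (Ctsg, Cd34 and Hoxa9) and 3 were lower, against 18.5% higher and 20.8% lower over all genes tested. Of the lower ones Cebpa, a myeloid transcription factor gene, averaged 25.3 ± 3.55 CPM in resistant and 95.8 ± 6.1 CPM in sensitive libraries, the neutrophil elastase gene Elane 255 ± 50.5 CPM in resistant and 503 ± 75.1 CPM in sensitive libraries, and the receptor gene Kit 109 ± 5 CPM in resistant and 134 ± 5.06 CPM in sensitive libraries. CPM are counts scaled to a common library total with TMM factors. Of 7 tested erythroid markers 6 were lower, against 20.8% of all genes tested, and Klf1 (log2 fold change 0.55 ± 0.28) did not pass. The 7 markers summed to 0.977 to 2.64 CPM in resistant and 46.1 to 80.5 CPM in sensitive libraries. The part of red cell RNA in the results below was not tested. The tested markers of B cells (2 genes), T cells (2), megakaryocytes (2) and endothelium or stroma (1) summed to 37.8 to 40.6, 3.4 to 4.33, 5.46 to 6.71 and 0.252 to 0.683 CPM in resistant libraries. In sensitive libraries they summed to 37.8 to 40.8, 4.99 to 6, 9.18 to 10.3 and 0.344 to 0.549 CPM. Of the untested markers, Emcn had 0 counts in all libraries. In these bulk samples fewer cells of a type and less RNA per cell cannot be told apart.

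Top2a, whose product is the anthracycline target of dividing cells, had 634, 640 and 648 CPM in resistant blasts, against 848, 831 and 755 CPM in sensitive blasts. The resistant values lay within a narrow band and below every sensitive value. Means were 641 ± 6.71 CPM in resistant and 811 ± 49.2 CPM in sensitive blasts (SD, n = 3 each), a log2 fold change of -0.34 ± 0.05 SE with a 95% interval of -0.46 to -0.22 (edgeR adjusted p = 0.000732). Top2a passed the test under all 13 alternatives of scaling, filter, tool, block or left-out library, with a log2 fold change of -0.39 to -0.31 and an adjusted p of at most 0.00673 in those fits.

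Top2b, the paralog that non-dividing cells also use and that anthracyclines hold on DNA too, had 323, 272 and 277 CPM in resistant blasts, against 317, 289 and 287 CPM in sensitive blasts. The groups overlapped, and replicate 1 was the highest in each. The log2 fold change was -0.04 ± 0.07, with an interval of -0.20 to 0.13 (edgeR adjusted p = 0.73), so the lower bound was a smaller change than the estimate for Top2a. Top2b did not pass under any of the 13 alternatives.

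The balance of the pair was read as the share of Top2a in the summed level of Top2a and Top2b, each divided by the length of its longest annotated transcript (5221 bases for Top2a and 10335 for Top2b). Top2a made up 79.5%, 82.4% and 82.3% in resistant blasts, against 84.1%, 85% and 83.9% in sensitive blasts. The groups did not overlap, and the means were 81.4 ± 1.6% in resistant and 84.3 ± 0.605% in sensitive blasts (SD, n = 3 each). The difference of -2.97 percentage points had p = 0.1 in a two-sided exact permutation test, the smallest p that 3 libraries against 3 allow. Divided instead by the longest annotated coding length, the share averaged 70% in resistant and 74.2% in sensitive blasts. That length was 4584 bases for Top2a and 4836 for Top2b, and it need not come from a gene's longest transcript.

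**Figure D1:**
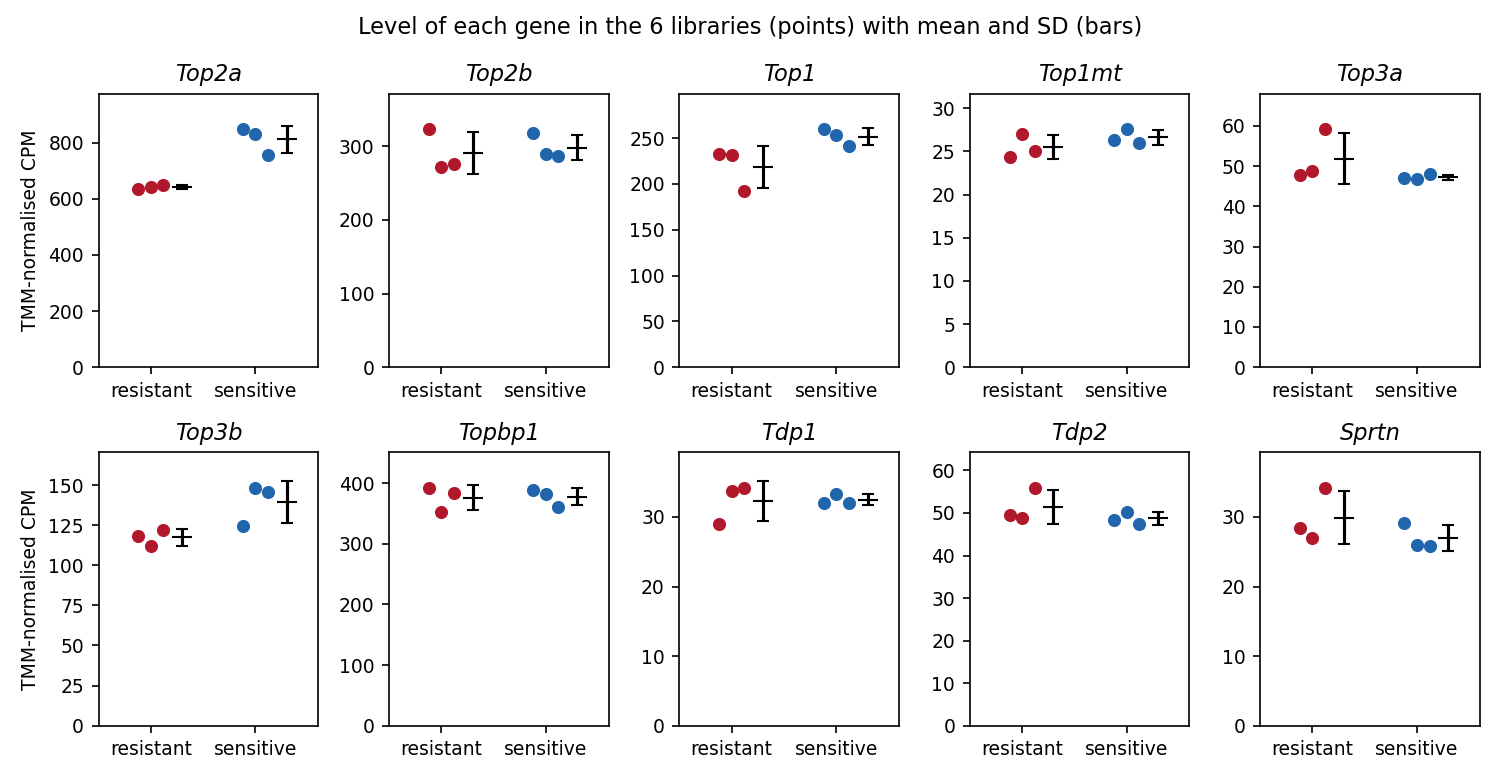
TMM-normalised CPM (y axis, from 0) of the 10 genes in the 3 resistant and the 3 sensitive libraries, with points for libraries and bars for the mean and SD. The 3 resistant values of Top2a sit at 634 to 648 CPM, below the sensitive ones, while those of Top2b overlap.

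TOP1 and TOP1MT are type IB enzymes, which cut 1 strand; TOP1 works in the nucleus on replicated and transcribed DNA and TOP1MT in mitochondria. Top1 had 233, 231 and 192 CPM in resistant blasts, against 260, 253 and 241 CPM in sensitive blasts. The groups did not overlap, and resistant replicate 3 was far below the other 2. The log2 fold change was -0.20 ± 0.07 with an interval of -0.37 to -0.04, and the edgeR adjusted p of 0.0531 missed the threshold. Top1 passed in 7 of the 13 alternatives, among them DESeq2 (adjusted p = 0.0278), limma-voom (0.0486) and the fit without resistant replicate 1 (0.0383), and did not in the other 6. Without resistant replicate 3 its log2 fold change was -0.11, with an adjusted p of 0.16, the highest of the 13.

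Top1mt had 24.4, 27 and 25.1 CPM in resistant blasts, against 26.3, 27.6 and 26 CPM in sensitive blasts. The groups overlapped, with a log2 fold change of -0.06 ± 0.08 and an interval of -0.23 to 0.11 (edgeR adjusted p = 0.545). Per length of the longest transcript, Top1 made up 80.8 ± 1.7% of the summed Top1 and Top1mt level in resistant and 82.3 ± 0.563% in sensitive blasts (SD, n = 3 each). Those shares overlapped, and their difference of -1.53 points had p = 0.3 in the same exact permutation test. That difference rested on single libraries, at -0.669 points without resistant replicate 3 and -2.37 points without resistant replicate 1, and it was -0.923 points with no length correction.

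TOP3A and TOP3B are type IA enzymes, which pass 1 strand through a cut in another. TOP3A acts with the BLM helicase, RMI1 and RMI2 to undo crossed DNA molecules, and TOP3B acts on DNA and RNA with TDRD3 and the RNA-binding protein FMRP. Top3b had 118, 112 and 122 CPM in resistant blasts, against 125, 148 and 146 CPM in sensitive blasts. The groups did not overlap, but resistant replicate 3 and sensitive replicate 1 lay close together. The log2 fold change was -0.25 ± 0.07 with an interval of -0.41 to -0.09 (edgeR adjusted p = 0.0194). The call was lost without sensitive replicate 2 (adjusted p = 0.096), sensitive replicate 3 (0.0793) or resistant replicate 2 (0.0667), with a log2 fold change of -0.22 to -0.21 in those fits.

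Top3a had 47.7, 48.7 and 59.2 CPM in resistant blasts, against 47, 46.8 and 48 CPM in sensitive blasts. Resistant replicate 3 stood above the other 5 libraries, which lay close together. The log2 fold change was 0.13 ± 0.08 with an interval of -0.05 to 0.32 (edgeR adjusted p = 0.237). The 5 type IA partner genes split into 2 higher, 1 lower and 2 not passing (18.5% higher and 20.8% lower over all genes tested). Tdrd3, the partner of Top3b, had 138, 141 and 134 CPM in resistant blasts, against 97.6, 102 and 99.2 CPM in sensitive blasts, and its log2 level rose by 0.47 ± 0.05 (adjusted p = 6.73e-05, edgeR), opposite in sign to Top3b. Fmr1, which encodes FMRP, rose by 0.20 ± 0.07 (adjusted p = 0.0353, edgeR), a call lost in 5 of the 13 alternatives: with library totals and without sensitive replicate 2, sensitive replicate 3, resistant replicate 1 or resistant replicate 3. Rmi2 had 15.9, 19.9 and 16 CPM in resistant blasts, against 31.5, 33.5 and 32.6 CPM in sensitive blasts, or -0.92 ± 0.10 on the log2 scale (edgeR adjusted p = 5.36e-05). Blm (-0.14 ± 0.06) and Rmi1 (-0.24 ± 0.10) did not pass. Without sensitive replicate 2, sensitive replicate 3, resistant replicate 1 or resistant replicate 3, 1 gene of the list was higher instead of 2, and without sensitive replicate 3, 2 were lower.

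**Figure D2:**
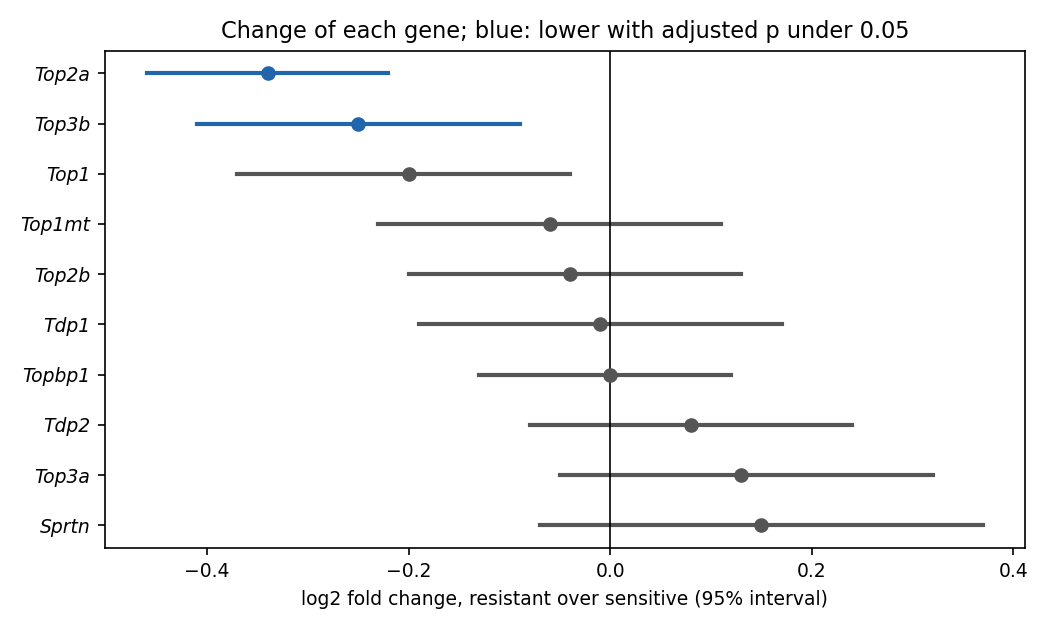
Log2 fold change of each gene (x axis, resistant over sensitive; points) with its 95% interval (lines), ordered by size. Top2a and Top3b, in blue, passed the test at -0.34 and -0.25, and the interval of Top1 also lay below 0 although its adjusted p was 0.0531.

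The 3 adduct repair genes did not pass under the main test or any of its 13 alternatives. Tdp2, whose product frees TOP2 from DNA ends and which was first known as a signalling partner named TTRAP, had 49.5, 48.8 and 55.9 CPM in resistant blasts, against 48.4, 50.3 and 47.4 CPM in sensitive blasts. The groups overlapped, with a log2 fold change of 0.08 ± 0.07 and an interval of -0.08 to 0.24 (edgeR adjusted p = 0.412). Tdp1 had 28.9, 33.7 and 34.2 CPM in resistant blasts, against 32.1, 33.4 and 32 CPM in sensitive blasts. Its groups overlapped too, with a log2 fold change of -0.01 ± 0.08 and an interval of -0.19 to 0.17 (edgeR adjusted p = 0.929). Sprtn had 28.4, 27 and 34.2 CPM in resistant blasts, against 29.1, 26 and 25.9 CPM in sensitive blasts. Resistant replicate 3 was the highest library, and the log2 fold change was 0.15 ± 0.10 with an interval of -0.07 to 0.37 (edgeR adjusted p = 0.266). The same library also had the highest value of Top3a and Tdp2 and the lowest of Top1.

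TOPBP1 is a scaffold protein that binds topoisomerase IIβ, starts replication and switches on the ATR checkpoint kinase. Topbp1 had 392, 352 and 384 CPM in resistant blasts, against 389, 382 and 361 CPM in sensitive blasts. The groups overlapped, and the log2 fold change was 0.00 ± 0.06 with an interval of -0.13 to 0.12 (edgeR adjusted p = 0.963). The 12 genes of TOPBP1 and the ATR checkpoint split into 1 higher, 2 lower and 9 not passing (18.5% higher and 20.8% lower over all genes tested). Rad9a, a subunit gene of the ring-shaped clamp that brings TOPBP1 to damaged DNA, averaged 24.5 ± 1.59 CPM in resistant and 33.4 ± 0.919 CPM in sensitive blasts, or -0.44 ± 0.08 on the log2 scale (edgeR adjusted p = 0.00122). Clspn, the gene of the CHK1 mediator Claspin (-0.16 ± 0.05), and Rhno1, which encodes a partner of that clamp (0.23 ± 0.08), passed with edgeR adjusted p-values of 0.0302 and 0.0326. Those calls were lost in 6 and 5 of the 13 alternatives, and leaving out any 1 of the 6 libraries ended one or both of them. Atr itself (0.15 ± 0.07) and Chek1, its effector kinase gene (-0.07 ± 0.08), did not pass.

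Levels of different genes were set side by side per length, as CPM per kilobase of the longest transcript. In resistant blasts Top2a was highest at 123 ± 1.29, followed by Topbp1 at 72 ± 4.04, Top1 at 56.7 ± 5.95, Top3b at 33.4 ± 1.47, Top2b at 28.1 ± 2.75, Tdp2 at 26.3 ± 2.01, Top3a at 13.9 ± 1.69, Top1mt at 13.4 ± 0.72, Tdp1 at 8.18 ± 0.737 and Sprtn at 6.69 ± 0.856 CPM per kilobase (SD, n = 3). In sensitive blasts the same measure was 155 ± 9.43 for Top2a, 72.2 ± 2.71 for Topbp1, 65.2 ± 2.42 for Top1, 39.8 ± 3.72 for Top3b, 28.8 ± 1.64 for Top2b, 24.9 ± 0.75 for Tdp2, 14 ± 0.44 for Top1mt, 12.6 ± 0.167 for Top3a, 8.23 ± 0.196 for Tdp1 and 6.04 ± 0.407 for Sprtn. Neighbours whose library values overlapped in resistant blasts were Top2b and Tdp2, Top3a and Top1mt, and Tdp1 and Sprtn, and in sensitive blasts no neighbours overlapped. The order depends on the length used: per kilobase of coding sequence Top2b averaged 60.1 in resistant and 61.6 in sensitive blasts, above Top3b at 45.4 in resistant and 54 in sensitive blasts. On that scale Top1, at 95 in resistant and 109 in sensitive blasts, stood above Topbp1, at 82.7 in resistant and 83 in sensitive blasts.

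Genes that cycle with Top2a through G2 and mitosis were lower as well in part. Of 28 such genes edgeR called 0 higher and 13 lower, and 15 did not pass. The shares over all genes tested were 18.5% higher and 20.8% lower. At an unadjusted p under 0.05, edgeR gave 0 higher and 15 lower. DESeq2 and limma-voom each called 0 higher and 13 lower at an adjusted p under 0.05. The median log2 fold change of the list was -0.16, against -0.01 over all genes tested. Kif11, the spindle motor gene, had 186, 173 and 168 CPM in resistant blasts, against 278, 274 and 253 CPM in sensitive blasts, or -0.61 ± 0.06 on the log2 scale (edgeR adjusted p = 2.98e-05). Ube2c, a ubiquitin-conjugating enzyme gene of the anaphase-promoting complex, had a log2 fold change of -0.44 ± 0.06. Those of the spindle gene Ckap2l and the mitotic kinase gene Plk1 were -0.32 ± 0.06 and -0.29 ± 0.06. Ube2c, Ckap2l and Plk1 each passed edgeR's test in the main fit. Each also passed in all 13 alternatives, DESeq2 and limma-voom among them. The cyclin gene Ccnb1 (-0.06 ± 0.06) and Birc5, the survivin gene (-0.10 ± 0.06), did not pass. Without sensitive replicate 2, 8 of the 28 genes were lower, and without resistant replicate 2, 1 was higher. The list's genes were chosen as proliferation genes, and 20 S phase genes gave 1 higher, 2 lower and 17 not passing, with a median of -0.03. Prim1, a primase subunit gene, rose by 0.40 ± 0.06, and Cdc45, a helicase component gene of the replication fork, fell by 0.39 ± 0.08; Slbp, the histone mRNA binding protein gene, was at -0.16 ± 0.05, a call lost in 6 of the 13 alternatives. Without sensitive replicate 1, 2 or 3, 1 S phase gene was lower, and without resistant replicate 1, 2 were higher.

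The level of Top2a was also set against the summed level of the 28 G2 and mitosis genes in each library. It came to 13.5%, 14.3% and 14.1% of that sum in resistant blasts, against 16.4%, 15.6% and 15.1% in sensitive blasts. The groups did not overlap, with means of 14 ± 0.45% in resistant and 15.7 ± 0.68% in sensitive blasts (SD, n = 3 each), and this ratio was chosen after the values were seen and was not tested. The promoter motifs of the list were counted in the same way as those of the members. Among genes with a promoter, CCAAT was found for 10 of 12 that were lower and 10 of 11 that did not pass. TTTGAA was found for 10 of 12 and 7 of 11. A match in any promoter of a gene counted. Of all 32851 promoters searched, 37.4% held CCAAT and 17.9% held TTTGAA.

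**Figure D3:**
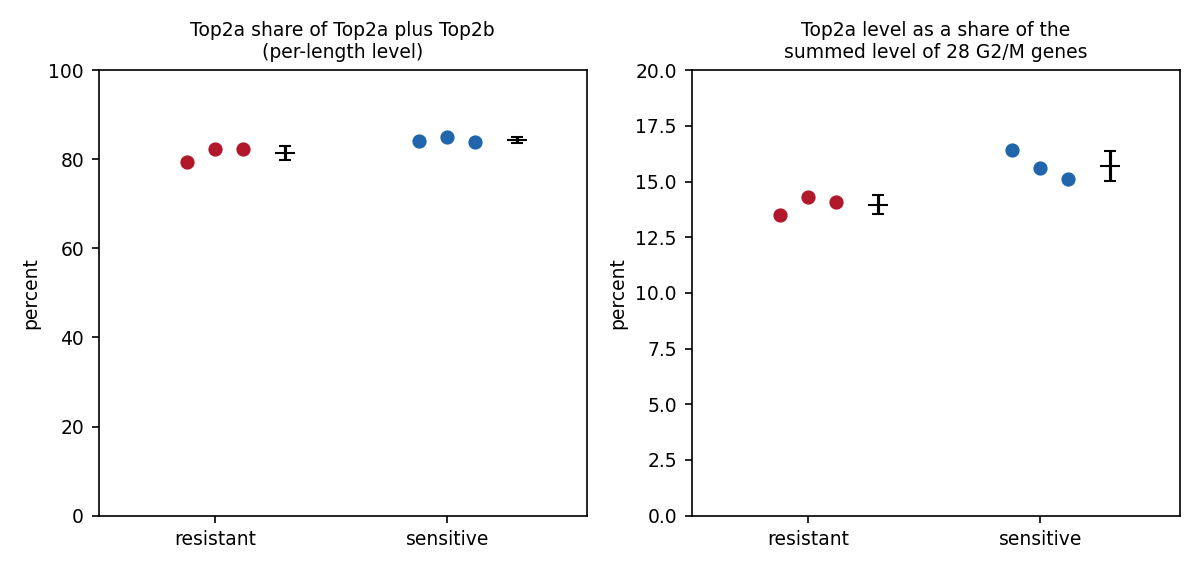
Left, Top2a as a percent of the summed Top2a and Top2b level per transcript length; right, Top2a as a percent of the summed level of 28 G2 and mitosis genes (y axes from 0; points are libraries, bars the mean and SD). Resistant libraries sit at 79.5% to 82.4% on the left and 13.5% to 14.3% on the right, below all sensitive libraries in both.

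Among genes that work with the repair members, calls went in both directions, as they did over all genes tested (18.5% higher and 20.8% lower). The 12 genes that process adducts and strand ends with TDP1 or beside it split into 2 higher, 4 lower and 6 not passing, with a median log2 fold change of -0.03. The count of lower genes was 3 with RLE or upper-quartile scaling, DESeq2 or no low-count filter. It was also 3 without sensitive replicate 1, 2 or 3 or resistant replicate 3. Xrcc1, the scaffold gene of single-strand break repair, had 25.1, 34.5 and 31.5 CPM in resistant blasts, against 51, 47.4 and 47.5 CPM in sensitive blasts, or -0.68 ± 0.10 on the log2 scale (edgeR adjusted p = 0.000606). Mus81, a nuclease gene that cuts stalled forks, had 15.3, 21.7 and 13.4 CPM in resistant blasts, against 28.8, 30.6 and 34.7 CPM in sensitive blasts, or -0.91 ± 0.15 on the log2 scale (edgeR adjusted p = 0.00111). Resistant replicate 2 was the highest of its group for both genes, and it still lay below every sensitive library. Apex1, an abasic site nuclease gene (0.38 ± 0.06, edgeR adjusted p = 0.000871), and Parp1, the break sensor gene (0.28 ± 0.06, adjusted p = 0.0041), rose. The 4 genes whose products take part in cutting TOP2 off DNA ends did not pass. They were Mre11a (0.11 ± 0.05), Nbn (-0.15 ± 0.07), Rad50 (-0.04 ± 0.08) and Rbbp8 (0.02 ± 0.06). Of these genes, 0 reached an unadjusted p under 0.05 in edgeR or a call in DESeq2 or limma-voom.

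The list of proteolysis, ubiquitin and SUMO genes that act on trapped topoisomerases had 7 higher, 2 lower and 7 not passing of 16 tested. Its median was 0.15, and no ID of the table matched Gcna. The shares over all genes tested were 18.5% higher and 20.8% lower. Vcp, the gene of the ATPase that pulls ubiquitinated proteins from chromatin and partners SPRTN, had 704, 709 and 718 CPM in resistant blasts, against 620, 596 and 599 CPM in sensitive blasts, and rose by 0.23 ± 0.05 (edgeR adjusted p = 0.00262). Ufd1, a cofactor gene of Vcp, rose by 0.40 ± 0.06 (edgeR adjusted p = 0.000514). Topors, a ligase gene named for its binding to TOP1, rose by 0.22 ± 0.06 (edgeR adjusted p = 0.0119), a call lost without sensitive replicate 2 or sensitive replicate 3. The SUMO ligase gene Pias1 fell by 0.28 ± 0.07 (edgeR adjusted p = 0.00893). The count of higher genes in this list rested on single libraries: it was 2 without sensitive replicate 2 or sensitive replicate 3, and 4 without resistant replicate 3. Without any 1 library other than resistant replicate 1, 1 gene of the list was lower instead of 2.

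The 9 genes that join broken ends split into 1 higher, 2 lower and 6 not passing, with a median of -0.06. The shares over all genes tested were 18.5% higher and 20.8% lower. Lig4, the ligase gene of this pathway, averaged 4.97 ± 0.727 CPM in resistant and 8.75 ± 0.879 CPM in sensitive blasts, or -0.82 ± 0.14 on the log2 scale (edgeR adjusted p = 0.00148). Xrcc5, which encodes Ku80, averaged 3.62 ± 0.281 CPM in resistant and 1.69 ± 0.227 CPM in sensitive blasts, or 1.10 ± 0.19 on the log2 scale (edgeR adjusted p = 0.00123). It had only 430 counts over all 6 libraries. Xrcc6, of the same list, averaged 79.9 ± 8.93 CPM in resistant and 81.5 ± 3.89 CPM in sensitive blasts and did not pass. Why Xrcc5 lay so far below Xrcc6 was not tested. Trp53bp1, the gene of the damage mediator 53BP1, was at -0.20 ± 0.07 (edgeR adjusted p = 0.0358), a call lost without sensitive replicate 1, 2 or 3 or resistant replicate 3. Prkdc, the gene of the DNA-dependent kinase, was at 62.1 ± 3.47 CPM in resistant and 62.1 ± 0.913 CPM in sensitive blasts and did not pass. Without sensitive replicate 2, sensitive replicate 3 or resistant replicate 3, 1 end-joining gene was lower, and without resistant replicate 3, 2 were higher.

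Among 4 drug efflux genes, the log2 level of the pump gene Abcg2 rose by 1.84 ± 0.09 (adjusted p = 2.98e-07, edgeR). That of the pump gene Abcc1 rose by 0.21 ± 0.06 (edgeR adjusted p = 0.0149, lost without sensitive replicate 2). Abcb1b did not pass, and Abcb1a had 0 counts in all 6 libraries. Whether these pumps export doxorubicin was not tested. Of the meiotic relatives of the topoisomerases, Spo11 had 4 counts and Gm960, known as Top6bl, had 3 counts over all 6 libraries, and neither was tested.

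**Figure D4:**
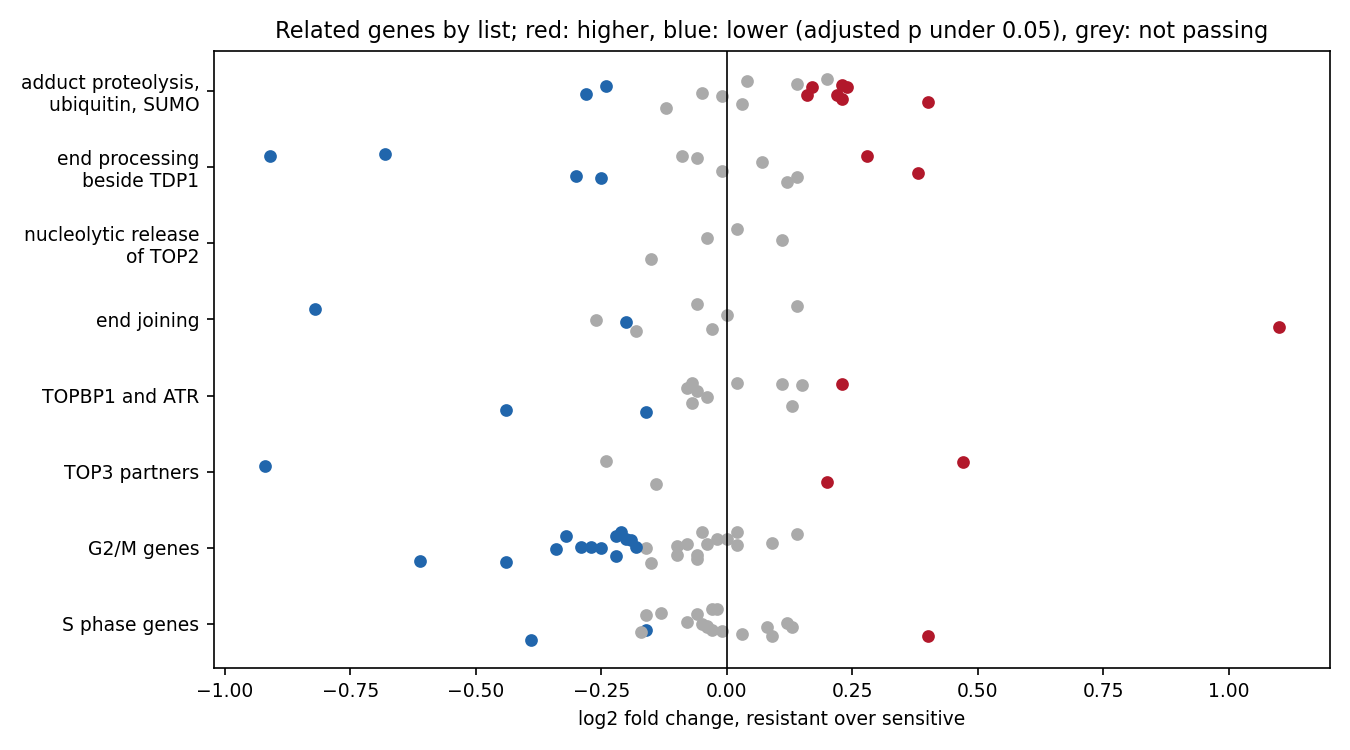
Log2 fold change (x axis, resistant over sensitive) of each tested gene (points) in 8 lists around the topoisomerases, with higher genes in red, lower genes in blue and genes not passing in grey. The G2 and mitosis list holds 13 lower and 0 higher genes, and the list for cutting TOP2 off DNA ends holds none that passed. Of all genes tested, 20.8% were lower and 18.5% higher.

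The genes whose log2 CPM followed a member most closely over the 6 libraries are given as a description, since any gene that separates the groups in the same way scores high. For Top2a they were Cd68, Ndrg1 and Tnfsf10, with Pearson r of 0.9991, 0.9981 and 0.9966, and 1221 of the 10897 genes compared had r over 0.9. Top3b was followed by Cdh24, Phykpl and Rmdn3 (0.9940, 0.9924 and 0.9913), with 162 genes over 0.9. Top2b was followed by Xiap, Snx6 and Malt1 (0.9901, 0.9878 and 0.9863), with 92 genes over 0.9.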

How the data were processed

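For 6 libraries the authors deposited whole-number counts for each Ensembl gene, and 0 sample columns were left unused. TopHat2, RSEM and the build mm9 are named per the submitters' processing notes, without versions or roles. The annotation, strand setting, handling of shared reads and whether counts are rounded estimates are not stated, so overlapping and antisense genes are uncertain. Symbols and lengths came from GENCODE M21, a later build (31636 IDs matched).

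After filterByExpr and TMM scaling, edgeR 4.0.16 (glmQLFit and glmQLFTest, group alone) under R 4.3.3 tested 13414 genes, with Benjamini-Hochberg adjustment. SE is the size of the log2 fold change over the root of F. On simulated data of 13414 genes (5 simulations), that step found 65.4% of 1.5-fold changes, with 4.86% of all its calls false. The 5 simulations together gave 865 calls, against 5260 in the real fit, so these rates may not hold for it. The members changed by less than 1.5-fold. Library pairs within groups differed beyond counting noise (chi-square over degrees of freedom 3.925 to 13.59), so none was a copy.

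Members and lists were chosen with earlier results of these data known. Up to 4 passing genes per list, those with the smallest adjusted p, were named; list genes named without passing were chosen after their values were seen. Alternatives were RLE, upper-quartile and library-total scaling, DESeq2 1.42.0, limma-voom (limma 3.58.1), no filter, the replicate number as a block, and each library left out in turn. Coding length was added after seeing the data. A floor of 3 counts was 0.0942 to 0.135 CPM, for counting error only.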

Additional observations from a re-analysis of the deposited data

How the results depend on the processing

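No member was higher under any of the 13 alternatives. The count of lower members was 2 in the main fit, 2 with RLE scaling and 3, with Top1 added, under upper-quartile and library-total scaling, DESeq2, limma-voom, no low-count filter and the replicate block. Over the fits that left out 1 library it was 1 to 3. Over those fits the counts of all genes were 1641 to 2521 higher (2475 in the main fit) and 2015 to 2711 lower (2785 in the main fit). Correlations of deviations from the group means were 0.037, -0.006 and -0.086 for same-numbered libraries. For libraries with different numbers they were -0.063 to 0.069. These values cannot decide whether replicate numbers pair the libraries, since deviations within a group of 3 offset one another. With the replicate block 2497 genes were higher, 2824 lower and 3 members lower, and Top1 passed (adjusted p = 0.0175). The shares of Top2a in the Top2a and Top2b level and of Top1 in the Top1 and Top1mt level were recomputed with no length correction, with coding length and without each library in turn, and kept their direction in those settings. Of the members Sprtn had the widest interval. With library totals the type IA partners held 1 higher and 2 lower genes (2 and 1 in the main fit), the TOPBP1 and ATR list 0 higher (1 in the main fit) and the S phase list 5 lower (2 in the main fit), and without a low-count filter 1 gene was lower in each of the last 2 lists (2 in the main fit). The cause was not tested.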
